A study of Mus musculus with 13 samples.

Results

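Plasma miRNAs known from dystrophic muscle are described here: both arms of the miR-31 and miR-335 hairpins, miR-221-3p, miR-222-3p and miR-135a-5p. They form a list of names set out with earlier results of these libraries known, and make up 7 of the 1907 mature miRNAs in the count table. Of these 7 miRNAs, 5 had enough counts to be among the 368 tested, while miR-31-3p and miR-135a-5p fell below the count filter. Small RNA was sequenced from the plasma of 13 male mice, 1 library per mouse, as part of a study of Givinostat, a histone deacetylase inhibitor, in mouse models of Duchenne muscular dystrophy. The groups were 3 mdx mice given Givinostat, 4 mdx mice given vehicle, 3 naive mdx mice and 3 naive wild-type (wt) mice. Givinostat was given by gavage at 37.5 mg/kg, 5 days a week for 15 weeks. The vehicle was 0.5% methylcellulose on the same schedule, whereas naive mice received neither. By the methods, naive mice of both genotypes also went through the functional tests, which were grip strength and treadmill runs to exhaustion. All mice were bought at 7 to 8 weeks of age, and all plasma carries the time label T16. The mdx mice lack dystrophin in the whole body. Their strain is C57BL10ScSn-Dmdmdx/J by the methods but C57BL/10J by the labels, which give C57BL/10J for every mouse, and if the substrains differed, that difference and the mutation cannot be told apart. Nothing in the labels says whether libraries were prepared together, and p-values measure the spread between these mice only.

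A miRNA hairpin is cut into a 5p and a 3p strand, of which usually one is loaded into an Argonaute protein and kept, where it pairs through its seed (bases 2 to 8) with target mRNAs. In skeletal muscle of mdx mice and of patients, miR-31 and miR-335 have been described with muscle regeneration, miR-222 with infiltrating inflammatory cells and miR-135a with loss of fibres, and miR-31 can repress dystrophin itself. In plasma, muscle miRNAs are read as markers of fibre damage, but most circulating miRNAs come from blood cells, endothelium and liver.

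The mature sequences are shown because the comparisons below turn on which strand, and which member of a seed family, was counted. All 7 were matched by name to RefSeq (GRCm38.p6), and the capitals mark the seed.
mmu-miR-31-5p: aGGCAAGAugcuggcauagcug
mmu-miR-31-3p: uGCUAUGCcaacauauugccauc
mmu-miR-335-5p: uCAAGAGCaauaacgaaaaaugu
mmu-miR-335-3p: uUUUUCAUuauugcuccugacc
mmu-miR-221-3p: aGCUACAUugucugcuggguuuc
mmu-miR-222-3p: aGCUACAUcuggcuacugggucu
mmu-miR-135a-5p: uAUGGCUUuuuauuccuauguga
Only miR-221-3p and miR-222-3p share a seed among the 7, GCUACAU, and differ after it, so that reads without a mismatch separate them. In GRCm38, Mir31 lies at chr4:88910557-88910662 on the minus strand, in an exon of the lincRNA AL805899.1. Mir335 lies at chr6:30741299-30741396 on the plus strand, in an intron of Mest, an imprinted gene on the same strand. Mir221 (chrX:19146294-19146388) and Mir222 (chrX:19146893-19146971) lie 505 bases apart on the minus strand, with no other annotated gene over them. miR-135a-5p has 2 loci with the same mature sequence, Mir135a-1 (chr9:106154124-106154213, plus strand, in an intron of D030055H07Rik and opposite an exon of Glyctk) and Mir135a-2 (chr10:92072086-92072185, minus strand, in an intron of Rmst), and the counts cannot tell them apart.

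Library totals were 1167161 to 2899315 counts. Levels are given as CPM, counts relative to library size, scaled by TMM, a factor per library that aligns the bulk of the miRNAs, and 3 counts, the limit that a count of 0 allows, correspond to 1.41 to 2.48 CPM depending on the library. Limits and intervals of this kind cover counting error only. The wt and mdx libraries differed widely in composition. All 5 skeletal muscle marker miRNAs were higher in each mdx group than in wt plasma, and all 4 liver markers were lower. Summed liver markers ranged from 28808 to 76553 CPM with Givinostat, from 30907 to 194055 CPM with vehicle and from 13945 to 95975 CPM in naive mdx mice, against 316729 to 893079 CPM in naive wt mice.

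Of the 7 miRNAs, miR-335-3p was called lower in the plasma of naive and vehicle-treated mdx mice than in wt plasma, while miR-335-5p from the same hairpin was not called. miR-335-3p was at 38.2, 27.4 and 43.9 CPM in the Givinostat mice, 26.5, 28.7, 19.2 and 24.98 CPM in the vehicle mice and 22.5, 23.3 and 26.1 CPM in naive mdx mice, against 37.4, 66.6 and 80.0 CPM in the naive wt mice. All vehicle and all naive mdx mice were below all wt mice, whereas Givinostat mice 31 and 35 were above the lowest wt mouse, number 86. The group means were 36.5 ± 8.36 CPM with Givinostat (SD, n = 3), 24.9 ± 4.04 CPM with vehicle (n = 4) and 24.0 ± 1.85 CPM in naive mdx mice (n = 3), against 61.3 ± 21.8 CPM in naive wt mice (n = 3). By edgeR's quasi-likelihood test with Benjamini-Hochberg adjustment over the 368 miRNAs, the log2 fold change was -1.35 (SE 0.32, adjusted p = 0.00296) for naive mdx against naive wt. For vehicle against naive wt, edgeR gave -1.30 (SE 0.29, adjusted p = 0.00176). For Givinostat against naive wt it gave -0.75 (SE 0.31, adjusted p = 0.0749), which did not pass, and without wt mouse 86 it gave -1.03 (adjusted p = 0.0181 by edgeR). Scaling to library totals in place of TMM reduced the naive mdx difference to -1.003, with an adjusted p of 0.0666 by edgeR. Over all alternatives tried, the adjusted p by edgeR or DESeq2 was 0.000768 to 0.0666 for naive mdx and 0.000626 to 0.0260 for vehicle, each against naive wt.

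These calls have to be read against how common calls were. miR-335-3p was the only one of the 5 tested members called for naive mdx against naive wt, a comparison in which 43.5% of all tested miRNAs were called, and the only one called for vehicle against naive wt, in which 47.3% were called. None of the 5 was called by edgeR for Givinostat against naive wt (background 34.2%), where 3 of the 5 had an unadjusted p under 0.05, as had 166 of all 368 (45.1%), and DESeq2 called 0 of 7 with 3 under 0.05 unadjusted. The median log2 fold change of the 5 was 0.36 for naive mdx against naive wt, against 0.04 over all tested miRNAs. The share of members called was thus below the share of all miRNAs called in each of these comparisons. In bulk plasma, release by fewer cells of a type and less RNA from each cell cannot be told apart.

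miR-335-5p, the other strand of the hairpin, was at 41.2, 36.0 and 82.0 CPM in the Givinostat mice, 34.9, 34.6, 53.9 and 40.4 CPM in the vehicle mice and 50.7, 46.0 and 46.7 CPM in naive mdx mice, against 17.1, 37.8 and 43.8 CPM in the naive wt mice. The naive mdx mice were all above the wt mice by a small margin, the vehicle and Givinostat mice overlapped them, and wt mouse 86 was lowest of all 13. The log2 fold change was 0.53 for naive mdx (SE 0.37, adjusted p = 0.239 by edgeR), 0.31 for vehicle (SE 0.35, adjusted p = 0.461) and 0.68 for Givinostat (SE 0.37, adjusted p = 0.169), each against naive wt. None passed, and the 95% confidence interval for naive mdx ran from -0.25 to 1.32. Single mice moved these values: without wt mouse 86 they were 0.19 for naive mdx, 0.0088 for vehicle and 0.36 for Givinostat, without wt mouse 95 they were 0.80, 0.62 and 0.96 in the same order, and without Givinostat mouse 35 the Givinostat value was 0.17. Without vehicle mouse 40, 41 or 42 the vehicle value was 0.56, 0.55 and 0.14, and none of these passed.

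**Figure D1:**
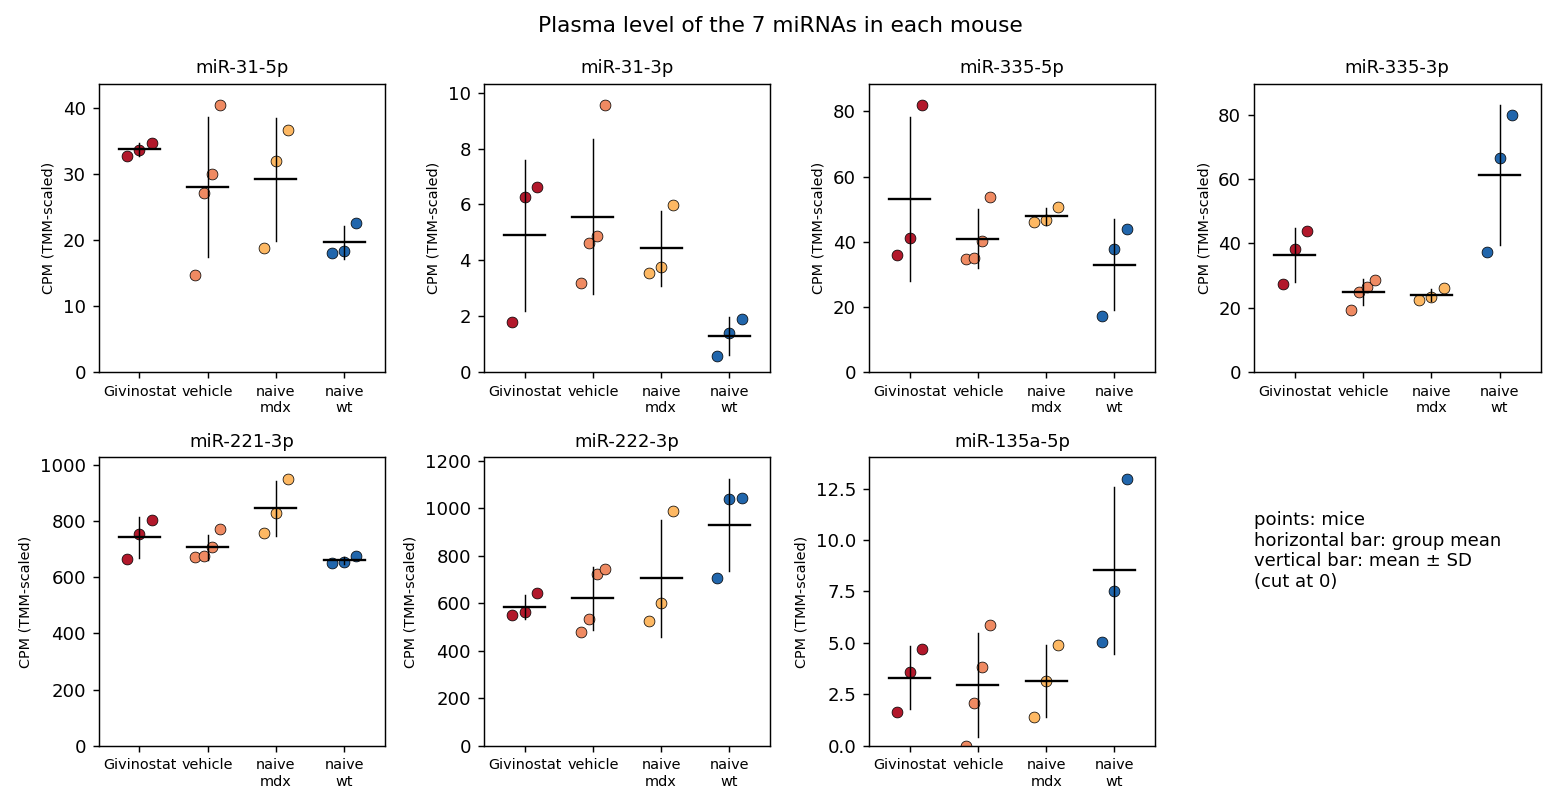
Plasma level (CPM, TMM-scaled, linear axes from 0) of each of the 7 miRNAs, 1 point per mouse, with the group mean (horizontal bar) and SD (vertical bar), for Givinostat, vehicle, naive mdx and naive wt mice from left to right. miR-335-3p and miR-135a-5p sit highest in wt mice, and miR-31-3p sits lowest there, at 0.564 to 1.90 CPM.

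Setting both strands of a hairpin against each other within a library removes library size and scaling. The log2 ratio of miR-335-5p to miR-335-3p counts was 0.11, 0.39 and 0.90 in the Givinostat mice, 0.39, 0.27, 1.47 and 0.68 in the vehicle mice and 1.16, 0.97 and 0.83 in naive mdx mice, against -1.11, -0.81 and -0.87 in the naive wt mice. The 5p strand thus had more counts than the 3p strand in all 10 mdx mice, and fewer in all 3 wt mice. The mean log2 ratio was 0.72 ± 0.43 in mdx mice of all treatments (SD, n = 10) and -0.93 ± 0.16 in wt mice (n = 3), a difference of 1.65. The exact two-sided permutation test gave p = 0.0035, the smallest that 10 mice against 3 can give, and 0.0315 after Benjamini-Hochberg adjustment over the 9 ratio tests made. Leaving out wt mouse 86, 89 or 95 gave differences of 1.56, 1.71 and 1.68, with adjusted exact permutation p-values of 0.0909, 0.0682 and 0.136, since the test then has fewer arrangements of the mice. With naive mdx mice alone the difference was 1.92 and the exact permutation p was 0.1, the smallest that 3 against 3 allows (adjusted p = 0.225). Pooling the mdx groups mixes treated and untreated mice, but each of the 3 groups lay wholly above the wt mice.

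Other hairpins separated mdx from wt mice in the same way. A ratio of 5p to 3p could be computed for 95 hairpins with both strands among the tested miRNAs, a set drawn up after the miR-335 values were known, and mdx and wt mice did not overlap in 13 of them (13.7%). miR-335 ranked 8 of 95 by the size of the difference, whose median over the hairpins was 0.49. It was 1 of 3 hairpins, with let-7d and miR-486a, in which the strand with more counts was a different one in every mdx mouse than in every wt mouse. Counts of different strands were not calibrated against each other, so the side of 0 speaks of counts and not of amounts. Cell markers also differed between mdx and wt mice, with liver markers lower and muscle markers higher in every mdx group, as given above. Whether they followed the ratio from mouse to mouse was not tested. Of 4 red blood cell miRNAs, miR-451a, miR-144-3p and miR-144-5p were lower and miR-486a-5p was higher for both naive mdx and vehicle against naive wt, and for Givinostat 2 were lower and 1 higher. Among all tested miRNAs, edgeR called 16.6% lower for naive mdx, 23.1% for vehicle and 11.7% for Givinostat, each against naive wt. The summed level of these 4 red blood cell miRNAs was 5355 to 6752 CPM with Givinostat, 4101 to 9864 CPM with vehicle and 3827 to 4073 CPM in naive mdx mice, against 5339 to 6599 CPM in naive wt mice. This sum mixes both directions. With vehicle, miR-486a-5p was at 1430 to 6822 CPM, against 259 to 341 CPM in naive wt mice. miR-451a was at 2365 to 3346 CPM with vehicle, against 4857 to 6038 CPM in naive wt mice. The part of these cells in the result was not tested.

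**Figure D2:**
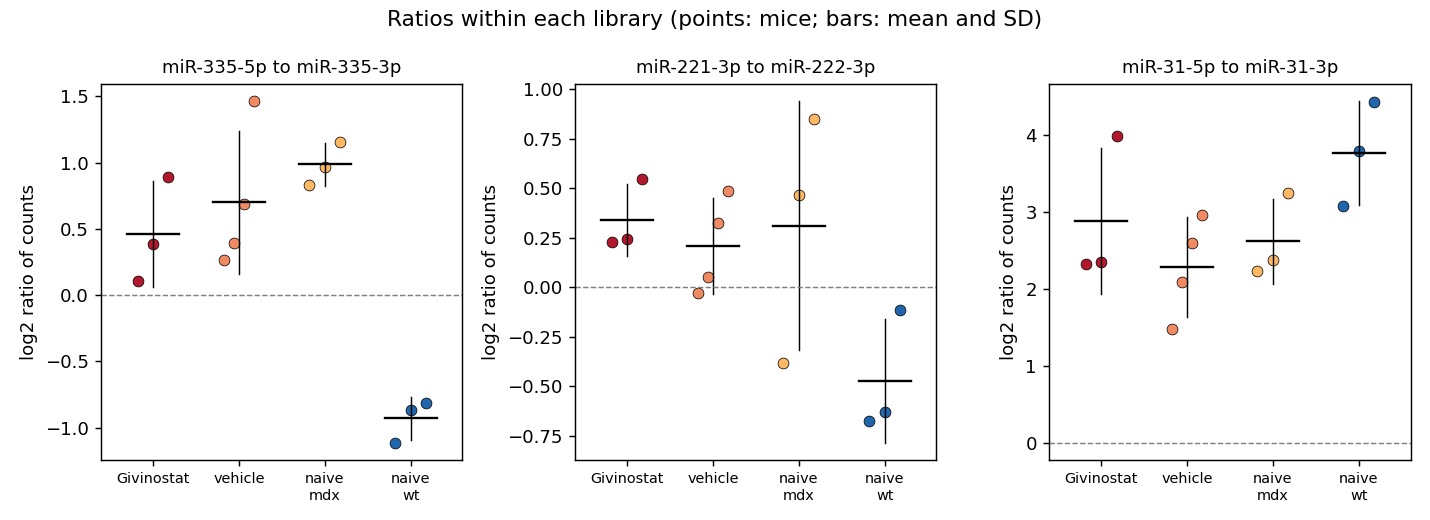
Log2 ratio of counts (0.5 added to each) within each library, for miR-335-5p to miR-335-3p, miR-221-3p to miR-222-3p and miR-31-5p to miR-31-3p, 1 point per mouse with group mean and SD, for Givinostat, vehicle, naive mdx and naive wt mice from left to right. The dashed line at 0 marks equal counts, and for miR-335 all 10 mdx mice lie above it and all 3 wt mice below it.

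**Figure D3:**
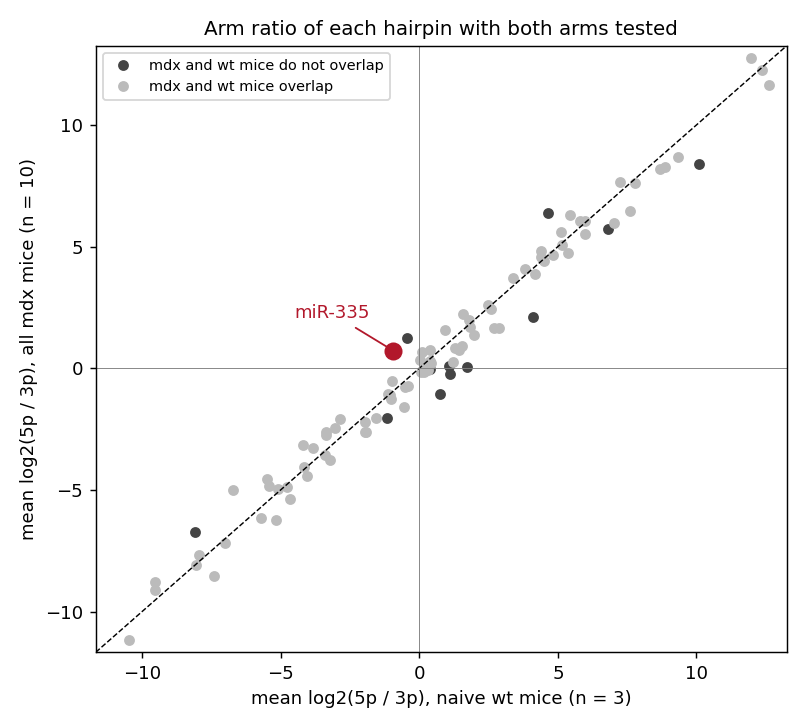
Mean log2 ratio of 5p to 3p counts in all mdx mice (vertical axis, n = 10) against naive wt mice (horizontal axis, n = 3), 1 point for each of the 95 hairpins with both strands tested, dark where mdx and wt mice did not overlap. The dashed line marks equal ratios, and miR-335 (red) lies above it at 0.72 against -0.93.

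miR-31-5p, the main strand of its hairpin in plasma, was at 32.8, 33.7 and 34.8 CPM in the Givinostat mice, 40.5, 27.2, 30.0 and 14.7 CPM in the vehicle mice and 18.8, 36.8 and 32.0 CPM in naive mdx mice, against 18.4, 18.1 and 22.6 CPM in the naive wt mice. It was above all wt mice in 8 of 10 mdx mice, the exceptions being vehicle mouse 43, the lowest of all, and naive mdx mouse 36, which lay among the wt mice. The group means were 33.8 ± 0.98 CPM with Givinostat (SD, n = 3), 28.1 ± 10.6 CPM with vehicle (n = 4), 29.2 ± 9.32 CPM in naive mdx mice (n = 3) and 19.7 ± 2.53 CPM in naive wt mice (n = 3). Neighbouring mdx groups in this order did not differ beyond their spread. The log2 fold change against naive wt was 0.77 for Givinostat (SE 0.36, adjusted p = 0.105 by edgeR), 0.51 for vehicle (SE 0.34, adjusted p = 0.209) and 0.56 for naive mdx (SE 0.36, adjusted p = 0.197), and none passed. Without vehicle mouse 43 the vehicle difference was 0.85 (adjusted p = 0.0353 by edgeR), and in a fit to the Givinostat and naive wt mice only the Givinostat difference was 0.89 (adjusted p = 0.0218). In no other alternative did a difference of miR-31-5p from naive wt pass. The adjusted p by edgeR or DESeq2 reached 0.219 for Givinostat, 0.468 for vehicle and 0.486 for naive mdx. The smallest differences were 0.67, 0.32 and 0.33 in the same order. All 3 Givinostat mice were above all wt mice. In that comparison 2 of the 5 tested members did not overlap, beside 53.8% of all tested miRNAs.

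miR-31-3p, the rarer strand, was counted 3, 8 and 8 times in the Givinostat mice, 7, 13, 6 and 5 times in the vehicle mice and 6, 5 and 11 times in naive mdx mice, against 3, 1 and 3 times in the naive wt mice. In CPM it was above all wt mice in 9 of 10 mdx mice, the exception being Givinostat mouse 31. Summed over mice, 72 counts in the 10 mdx mice against 7 in the 3 wt mice correspond to 4.91 and 1.28 CPM, a ratio of 3.84 with an exact 95% interval of 1.77 to 9.90 for counting error only. Below the filter it was not among the 368 miRNAs tested. In the edgeR fit without a filter its log2 fold change was 2.08 for vehicle against naive wt (adjusted p = 0.0148), in a fit that called 14.7% of its 1203 miRNAs. It was 1.72 for naive mdx (adjusted p = 0.0822, with 15% called) and 1.87 for Givinostat (adjusted p = 0.0741, with 10.2% called). Both were against naive wt by edgeR, and these did not pass. The p-values of that fit are not on the footing of the filtered one. For miR-133a-5p in naive mdx against naive wt, edgeR gave an unadjusted p of 1.44e-32 without the filter and 5.35e-11 with it. The log2 fold change was 6.51 in both, with an SE of 0.41 and 0.43. The unfiltered p thus leans on spread pooled over many miRNAs.

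The log2 ratio of miR-31-5p to miR-31-3p was 2.57 ± 0.69 in all mdx mice (SD, n = 10) and 3.77 ± 0.68 in wt mice (n = 3). The difference of -1.20 had an exact permutation p of 0.0210 and an adjusted p of 0.0629, which did not pass, and groups overlapped. It moved to -0.87 without wt mouse 89, which held 1 count of miR-31-3p, and to -1.36 without Givinostat mouse 31, with an adjusted exact permutation p of 0.0273. Unlike in miR-335, the 5p strand had more counts in all 13 mice.

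miR-221-3p and miR-222-3p, neighbours on the X chromosome with the same seed, are known for repressing the cell cycle inhibitor Cdkn1b and for their abundance in endothelium and in blood and immune cells. They were by far the most abundant of the 7 miRNAs in plasma. miR-221-3p was at 754, 804 and 664 CPM in the Givinostat mice, 769, 674, 672 and 706 CPM in the vehicle mice and 757, 949.8 and 828 CPM in naive mdx mice, against 651, 654 and 675 CPM in the naive wt mice. The 3 naive mdx mice were above all wt mice, and the treated groups overlapped them. Its log2 fold change was 0.36 for naive mdx (SE 0.20, adjusted p = 0.151 by edgeR), 0.10 for vehicle (SE 0.19, adjusted p = 0.675) and 0.17 for Givinostat (SE 0.20, adjusted p = 0.525) against naive wt, and the vehicle value had the other sign with upper-quartile scaling (-0.11).

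miR-222-3p was at 643, 549.8 and 561 CPM in the Givinostat mice, 742, 481, 536 and 722 CPM in the vehicle mice and 987, 526 and 599.7 CPM in naive mdx mice, against 1041, 707 and 1044 CPM in the naive wt mice. It was below all wt mice in 7 of 10 mdx mice, including all 3 given Givinostat, while naive mdx mouse 36 was near the highest wt mice. The log2 fold change against naive wt was -0.67 for Givinostat (SE 0.27, adjusted p = 0.0695 by edgeR), -0.59 for vehicle (SE 0.25, adjusted p = 0.0657) and -0.40 for naive mdx (SE 0.27, adjusted p = 0.232), and none passed. The naive mdx value was 0.08 with scaling to library totals and -0.69 without mouse 36 (adjusted p = 0.0499 by edgeR). The vehicle value was -0.81 with upper-quartile scaling (adjusted p = 0.0162 by edgeR), -0.36 with library totals and -0.33 without vehicle mouse 41, neither of which passed. The Givinostat value passed with upper-quartile scaling (-0.77, adjusted p = 0.0435 by edgeR) and without wt mouse 89 (-0.83, adjusted p = 0.0472 by edgeR). It did not pass in the other 10 of 12 alternatives. Over all of them it was as small as -0.46, with an adjusted p by edgeR or DESeq2 of up to 0.411.

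The log2 ratio of miR-221-3p to miR-222-3p was 0.23, 0.55 and 0.24 in the Givinostat mice, 0.05, 0.49, 0.33 and -0.03 in the vehicle mice and -0.38, 0.85 and 0.46 in naive mdx plasma, against -0.68, -0.11 and -0.63 in the naive wt mice. Of the mdx mice, only naive mouse 36 was below the highest wt mouse, number 89. The mean was 0.28 ± 0.34 in all mdx mice (SD, n = 10) and -0.47 ± 0.31 in wt mice (n = 3), a difference of 0.75 (exact permutation p = 0.00699, adjusted p = 0.0315). With naive mdx mice alone the difference was 0.78, with an exact permutation p of 0.2 (adjusted p = 0.3). Without naive mdx mouse 39 or vehicle mouse 41 the pooled difference was 0.73 in either case and its adjusted exact permutation p was 0.0614. Without wt mouse 86, 89 or 95 it was 0.65, 0.93 and 0.67, again with adjusted exact permutation p-values of 0.0909, 0.0682 and 0.136.

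Markers of the cells known to carry this pair were read in the same libraries. The summed level of 4 leukocyte and platelet miRNAs was 4106 to 6501 CPM with Givinostat, 4188 to 5368 CPM with vehicle and 4034 to 7650 CPM in naive mdx mice, against 6539 to 8612 CPM in naive wt mice. Of these 4, edgeR called 1 lower for naive mdx, 2 for vehicle and 1 for Givinostat against naive wt, and none higher. The shares of all tested miRNAs called lower were 16.6% for naive mdx, 23.1% for vehicle and 11.7% for Givinostat. The summed level of the 2 endothelial miRNAs, both strands of miR-126a, was 3978 to 7267 CPM with Givinostat, 3683 to 10310 CPM with vehicle and 3025 to 4453 CPM in naive mdx mice, against 6739 to 10182 CPM in naive wt mice. Of these 2, edgeR called 1 lower for naive mdx and 0 for vehicle and Givinostat against naive wt, and the vehicle and Givinostat sums overlapped those of wt mice. No marker of either list was at 0 in every mouse of a group, and their part in the values of miR-221-3p and miR-222-3p was not tested. The rarer strands miR-221-5p and miR-222-5p were tested and not called, with log2 fold changes for vehicle against naive wt of -1.03 (SE 0.42, adjusted p = 0.0512 by edgeR) and -0.82 (SE 0.46, adjusted p = 0.142).

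miR-135a-5p was the rarest member beside miR-31-3p. It was counted 6, 6 and 2 times in the Givinostat mice, 3, 8, 5 and 0 times in the vehicle mice and 5, 2 and 9 times in naive mdx mice, against 8, 23 and 16 times in the naive wt mice. The 0 of vehicle mouse 43 allows up to 1.92 CPM. In CPM, 9 of 10 mdx mice were below all wt mice, the exception being vehicle mouse 41. Summed counts of 46 in mdx and 47 in wt mice correspond to 3.14 and 8.58 CPM, a ratio of 0.366 with an exact 95% counting interval of 0.238 to 0.561. In the edgeR fit without a filter, the log2 fold change passed for vehicle against naive wt (-1.51, adjusted p = 0.0433). It did not pass for naive mdx (-1.40, adjusted p = 0.0801) or Givinostat (-1.26, adjusted p = 0.196). As for miR-31-3p, p-values of the unfiltered fit lean on pooled spread. Of the relatives of miR-135a-5p, miR-135b-5p was at 1.09 to 4.95 CPM in the mdx mice and 3.17 to 4.51 CPM in wt mice. miR-135b-3p was at 0 in all 13 libraries.

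**Figure D4:**
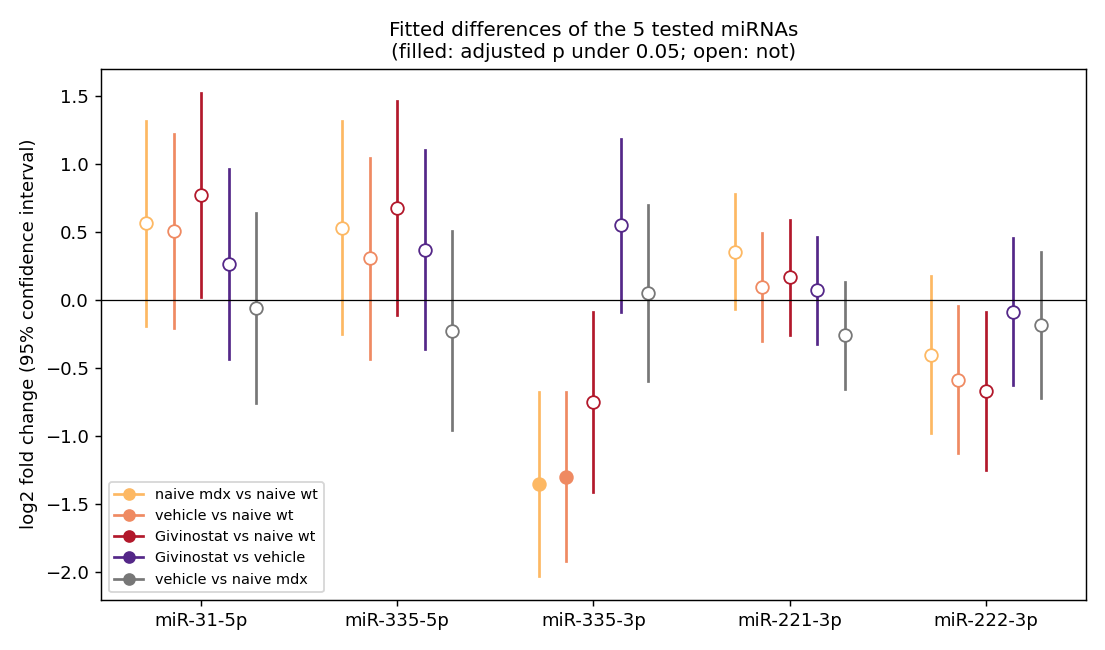
Log2 fold change with 95% confidence interval from the edgeR fit for the 5 tested miRNAs in 5 comparisons, each labelled with both of its groups, filled where the adjusted p is under 0.05. Only miR-335-3p has filled points, at -1.35 for naive mdx and -1.30 for vehicle, both against naive wt.

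Taking all 7 miRNAs, naive mdx and naive wt mice did not overlap in 5, and in 3 of the 5 tested, beside 57.6% of all tested miRNAs. For vehicle against naive wt the members without overlap were 2 of 7 and 1 of the 5 tested, beside 52.2%. For Givinostat against naive wt they were 3 of 7 and 2 of the 5 tested, beside 53.8%. A share of members without overlap close to or below that of all miRNAs is not a result about the members.

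Givinostat was compared with its vehicle to ask whether treatment altered these miRNAs. No member was called by edgeR (0 of 5, with 0.272% of all tested miRNAs called), none had an unadjusted p under 0.05, and DESeq2 called 0 of 7. The groups overlapped for all 7 members, beside 7.61% of tested miRNAs without overlap. miR-335-3p had the lowest unadjusted p, at 36.5 ± 8.36 CPM with Givinostat and 24.9 ± 4.04 CPM with vehicle (SD, n = 3 and 4), a log2 fold change of 0.55 with a 95% interval of -0.09 to 1.19 (adjusted p = 0.710 by edgeR). The intervals of the other members for Givinostat against vehicle were -0.43 to 0.96 for miR-31-5p, -0.36 to 1.10 for miR-335-5p, -0.32 to 0.47 for miR-221-3p and -0.63 to 0.46 for miR-222-3p. The ratio of miR-335-5p to miR-335-3p differed by -0.24 between Givinostat and vehicle mice (exact permutation p = 0.6), that of miR-221-3p to miR-222-3p by 0.13 (exact permutation p = 0.514) and that of miR-31-5p to miR-31-3p by 0.60 (exact permutation p = 0.429). With 3 against 4 mice the smallest p that test can give is 0.0571.

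Vehicle gavage itself was compared with no treatment in mdx mice. No member was called by edgeR for vehicle against naive mdx, none of the 5 had an unadjusted p under 0.05, and DESeq2 called 0 of 7. Over all 368 miRNAs edgeR called 0%, with 17 at an unadjusted p under 0.05, and groups did not overlap for 2.17% of miRNAs and for 0 of the 7 members. The log2 fold changes ran from -0.26 for miR-221-3p to 0.05 for miR-335-3p.

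The other miRNAs that the literature groups with these in dystrophic muscle were counted as a list of 7, of which 6 were tested. This list was set out with earlier results of these libraries known, and the study itself names miR-206, miR-1a and miR-449a from them, so its count is not independent evidence of a direction. miR-206-3p, a muscle miRNA of regenerating fibres, miR-1a-3p, abundant in mature muscle, and miR-29c-3p, which represses collagen genes, were higher in naive mdx than in naive wt plasma, by log2 fold changes of 4.26, 3.82 and 1.75 (adjusted p of 1.46e-07, 2.97e-05 and 0.000159 by edgeR). With vehicle 3 of 6 were higher as well, and none was lower in either comparison. The list was set out without a direction for each miRNA in muscle tissue. The count therefore does not say whether plasma followed muscle. Of all tested miRNAs, 26.9% were called higher for naive mdx, 24.2% for vehicle and 22.6% for Givinostat, each against naive wt. miR-34c-5p, miR-494-3p and the myeloid miR-223-3p were not called for naive mdx against naive wt, with log2 fold changes of 0.97, -1.20 and 0.03 (adjusted p of 0.146, 0.142 and 0.937 by edgeR). For Givinostat against naive wt 4 of 6 passed, with miR-34c-5p added (2.71, adjusted p = 0.00107 by edgeR). Against vehicle miR-34c-5p did not pass (2.19, adjusted p = 0.0521 by edgeR). It did in the edgeR fit without a filter (2.19, adjusted p = 1.46e-05), whose p-values lean on pooled spread. miR-206-3p and miR-1a-3p therefore differed from wt by far more than any of the 7 members in the same libraries. miR-206-3p averaged 144369 ± 55441 CPM in naive mdx plasma and 7514 ± 2171 CPM in naive wt plasma (SD, n = 3 each), while miR-335-5p and miR-31-5p stayed under 100 CPM in all 13 mice.

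The miRNAs whose centred log2 CPM was closest to each member over the 13 libraries were found among 309 with a mean of at least 10 CPM. These 309 include the member itself, which was not ranked. As a description, the root mean square difference was smallest for miR-199a-5p (0.32), let-7a-5p (0.32) and miR-195a-5p (0.34) with miR-335-3p. For miR-335-5p it was smallest with miR-100-5p (0.41), miR-190b-5p (0.42) and miR-532-5p (0.43), and the other strand of the hairpin was at rank 161 (0.76). miR-31-5p was closest to miR-350-3p (0.27), miR-28a-3p (0.31) and miR-30e-5p (0.32). miR-221-3p was closest to miR-140-3p (0.17), miR-10b-3p (0.18) and miR-186-5p (0.19), with miR-222-3p at rank 88 (0.44). miR-222-3p was closest to miR-342-3p (0.21), miR-3074-5p (0.23) and miR-92a-3p (0.24). Strands of the same hairpin and neighbours of the same locus were thus not among the closest in plasma by this measure. Counting error adds to it, and the libraries share their groups and composition.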

How the data were processed

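Mice were grouped by their sample titles. Per the labels and the methods, the authors trimmed reads (bcl2fastq 1.37.0, cutadapt 1.4.2 in the submitters' processing notes, Trimmomatic in the methods), aligned them with Bowtie 1.0.0 to mm10 and annotated mature miRNAs from miRBase. The authors deposited raw counts for 1907 miRNAs, which were used as they stand (0 columns unmatched), and a normalised table, which was not used. The 15 pairs of libraries within groups all differed (chi-square per degree of freedom at least 126.5).

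Counts were fitted in edgeR 4.0.16 under R 4.3.3: filterByExpr by group (minimum count 10), TMM factors, and 1 quasi-likelihood model over all 13 libraries, with Benjamini-Hochberg adjustment at 0.05 over 368 miRNAs. The fit was tested on simulated data. Ratios used counts plus 0.5 and exact two-sided permutation tests, 9 in all. Other settings tried were scaling by RLE, by upper quartiles or to library totals, omission of the filter, DESeq2 1.42.0, fits to 2 groups only, a pseudocount of 1 and leaving out each mouse. Figures used Python 3.11.15. The rule for naming miRNAs was the list of 7 members, their other strands and relatives, the listed signature and marker miRNAs, and the 3 closest to each member. The members, lists and tests were chosen with earlier results of these data known.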

Additional observations from a re-analysis of the deposited data

How the results depend on the processing

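No paired analysis was possible because the groups share no animal numbers. Library-total scaling moved the median log2 fold change of all miRNAs for naive mdx against naive wt to 0.43, and upper-quartile scaling to -0.20, against 0.04 with TMM, and calls split 118 higher and 23 lower, 82 and 96, and 99 and 61. Members called for naive mdx against naive wt were 0 with library totals (141 of 368 miRNAs called) and 1 to 3 leaving out 1 mouse (126 to 166 of 380 to 389 called). They were 3 without naive mdx mouse 36 and 2 without naive mdx mouse 37 or wt mouse 86. The filter was applied again each time, so that members otherwise below it could be tested. For vehicle they were 2 with upper-quartile scaling (185 of 368 called), 3 without a filter (177 of 1203), 2 with DESeq2 (176) and 1 to 2 leaving out 1 mouse (138 to 191), and for Givinostat 1 with upper-quartile scaling (124), 1 in the fit to 2 groups (142 of 332) and 0 to 1 leaving out 1 mouse (92 to 118). Calls over all miRNAs for Givinostat against vehicle were 1 as reported, 3 with upper-quartile scaling, 2 with library totals, 6 without a filter, 2 with DESeq2 and 0 to 6 leaving out 1 mouse (6 without Givinostat mouse 31).

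Values that changed sign were all uncalled. They were miR-222-3p for naive mdx against naive wt with library totals (0.079), miR-221-3p for vehicle against naive wt with upper-quartile scaling (-0.11) and, for Givinostat against vehicle, miR-222-3p with upper-quartile scaling (0.045). Leaving out 1 mouse, the Givinostat against vehicle values ran from -0.013 to 0.079 for miR-221-3p, from -0.15 to 0.58 for miR-335-5p and from -0.45 to 0.017 for the miR-335 ratio. For vehicle against naive mdx, miR-335-3p was -0.14 with library totals and miR-31-5p 0.025 without a filter, and leaving out 1 mouse gave -0.29 to 0.19 for miR-31-5p and -0.31 to 0.14 for miR-222-3p. The causes were not tested.

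Leaving out 1 mouse, the pooled mdx against wt ratio differences were 1.56 to 1.71 for miR-335, 0.65 to 0.93 for miR-221 to miR-222 and -1.55 to -0.87 for miR-31. With any wt mouse left out, the adjusted exact permutation p was 0.0682 to 0.136 for the first and second of these, in a design where fewer arrangements of the mice are left. Depth limits miR-31-3p and miR-135a-5p most, with 1 to 13 and 0 to 23 counts in a library.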

Other observations

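Among the 95 hairpins with both strands tested, let-7d and miR-486a shared a trait with miR-335. The strand with more counts was a different one in every mdx mouse than in every wt mouse. For let-7d the mean log2 ratio of 5p to 3p was -1.05 in all mdx mice (n = 10) and 0.74 in naive wt mice (n = 3), and for miR-486a it was 1.23 and -0.45. For the hairpin miR-486b it was 5.53 and 5.99, without a change of the strand with more counts. How reads were divided between miR-486a and miR-486b was not examined, so their ratios may not be independent. miR-449a-5p, listed with the signature miRNAs and below the count filter, was counted 2, 44 and 10 times in the Givinostat mice and 0 times in all vehicle and naive mdx mice, with a single count in naive wt mouse 95.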
